A study of Rattus norvegicus with 16 samples.

Results

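Bone taken next to a cement spacer was compared with bone taken next to an empty bone defect in the same rats. The members of the comparison are the 8 libraries whose labels name bone as the tissue, 4 of bone next to the spacer and 4 of bone next to the empty defect, out of 16 libraries in the series. All came from 4 Sprague-Dawley rats, in which both limbs carried an osteotomy held by a plate. A polymethyl methacrylate (PMMA) cement spacer filled the defect of a limb, the defect of the other limb was left empty as the control, and tissue was collected after 4 weeks. The sources used here give no age, sex or genetic change for the rats, and both bone groups share the osteotomy, the plate and the healing time. The other 8 libraries were of the membrane around the spacer and of the tissue in the empty defect. They entered the choice of genes tested, the scaling and the estimate of the spread between libraries, and were used to compare levels. The labels number the rats, so each rat gave a pair of bone libraries, and the sources do not state how much marrow, periosteum or muscle was left on the bone.

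The cement spacer is the first stage of the Masquelet technique, in which a vascular membrane forms around the cement and is later filled with bone graft. Bone is laid down by osteoblasts, which become osteocytes once buried in the matrix, and is resorbed by osteoclasts, which descend from blood-forming cells. Its marrow holds the precursors of red cells, neutrophils, platelets and B cells, together with fat cells, and its surface carries a fibrous and vascular periosteum, so that the RNA of a piece of bone is a mixture of all of these. In such bulk tissue fewer cells of a type and less RNA per cell cannot be told apart.

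The bone libraries held 40472228 to 72224200 counts. Levels are given as CPM, the count of a gene scaled to a common library size with TMM factors, and the fold change (log2FC) is the level beside the spacer over that beside the empty defect on a log2 scale. Genes were tested with edgeR's quasi-likelihood F-test over all 16 libraries, and a gene was called at a Benjamini-Hochberg adjusted p under 0.05. Adjusted p-values are from this test unless another is named. The bone label was checked against its defining markers: Bglap (osteocalcin, made by osteoblasts) was at 914 to 2689.5 CPM and Dmp1 (made by osteocytes) at 346 to 1647 CPM over the 8 libraries. In the membrane they were at 10.1 to 864 and 13.5 to 1060 CPM, and in the empty-defect tissue at 67.6 to 472 and 39.1 to 288 CPM. Dmp1 in the membrane thus overlapped with bone. The spacer-side bone library of rat 1, labelled 3a, stood apart from the rest of its group. Erythroid genes took 8.66% of its counts, against 0.551 to 1.48% in the other 3 spacer-side libraries and 4.61 to 8% beside the empty defect. On the first principal component of the 8 libraries, which held 48.8% of the variance, it lay at -15.8, between the other spacer-side libraries at 46 to 66.8 and the empty-defect libraries at -55.8 to -32.4. Counts of called genes are therefore given with this library and without it. The 64 called genes that the text names by rule were all called without it, in the same direction and with an adjusted p of at most 0.0396, and a gene's own values without it are given where they change its call.

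With all 8 bone libraries, 631 of 12857 genes tested (4.91%) were called. Of these, 451 (3.51%) were higher beside the spacer and 180 (1.4%) were lower, with at least 2-fold differences in 298 and 118 of them. Without library 3a, 2578 of 12969 genes (19.9%) were called, 1215 (9.37%) higher and 1363 (10.5%) lower. All 631 genes called with library 3a were called without it, in the same direction. The paired libraries showed the direction rat by rat: of the 451 higher genes, 449 had a higher CPM beside the spacer in rat 1, 451 in rat 2, 451 in rat 3 and 450 in rat 4, with median within-rat log2 ratios of 0.684, 1.3, 1.21 and 1.05. Of the 180 lower genes, 180, 180, 180 and 179 were lower in the 4 rats. These ratios use the libraries that made the calls and are a description. With the rat as a block in the model, 454 genes (3.53%) were called, 308 (2.4%) higher and 146 (1.14%) lower, of which 395 were shared with the fit without the block.

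The calls depended on single libraries. Leaving out the spacer-side library of rat 2, 3 or 4, or the empty-defect library of rat 1 or 3, left 0 genes called by edgeR, with 2050, 2019, 2318, 2187 and 2654 genes at an unadjusted p under 0.05 and lowest adjusted p-values of 0.0684, 0.0682, 0.0512, 0.0645 and 0.0603. Leaving out the empty-defect library of rat 2 left 271 called genes and that of rat 4 left 350. In all 8 fits that left out a single bone library, the 64 called genes that the text names by rule kept their direction. These genes were chosen as called on the same libraries, so this is a description. Once library 3a was out, leaving out any further bone library left 1071 to 2317 called genes, and 961 genes (441 higher, 520 lower) were called in all 7 of those fits, 477 of the 631 among them. With all libraries, DESeq2 called 1518 genes (950 higher, 568 lower) and limma-voom with sample weights 6244 (3175 higher, 3069 lower). EdgeR on the 8 bone libraries alone called 1767 (1149 higher, 618 lower). When library 3a was also left out, it called 5102 (2527 higher, 2575 lower). Counts of list members called by these fits are to be read beside these totals.

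**Figure D1:**
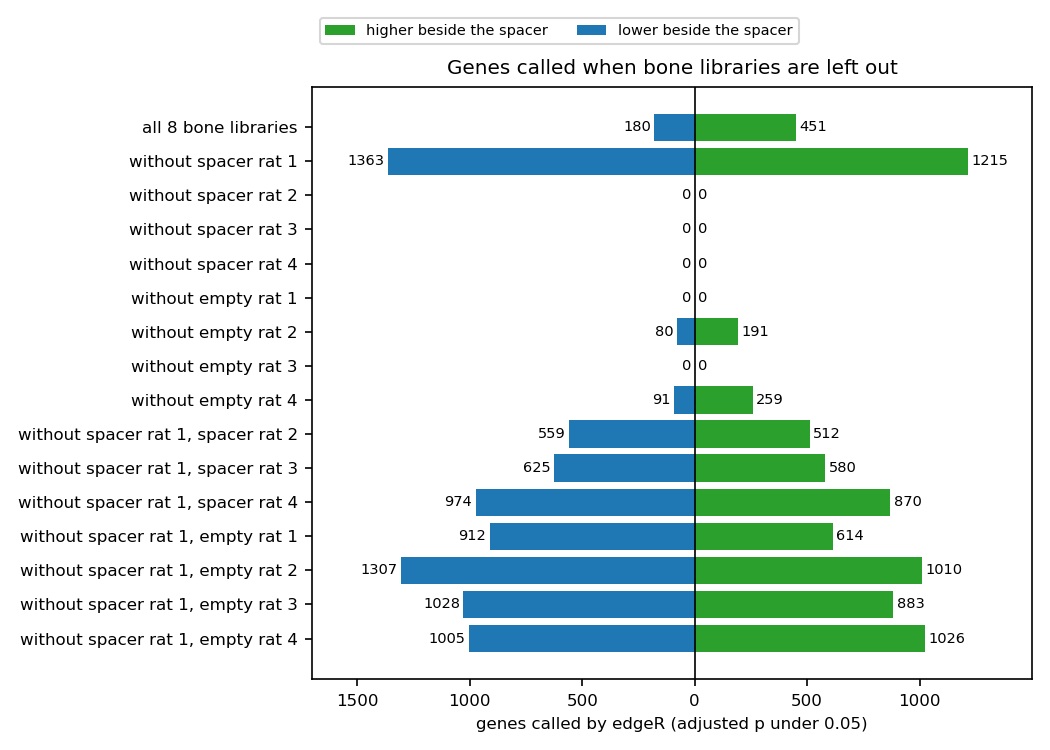
Number of genes called by edgeR (horizontal axis, adjusted p under 0.05) when bone libraries are left out, with genes higher beside the spacer to the right and lower genes to the left. The counts of 451 and 180 with all 8 libraries become 1215 and 1363 without the spacer-side library of rat 1, and 0 when a single other library out of 5 is left out.

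Of the called genes that averaged 5 CPM or more and whose groups did not overlap, the 8 with the largest rises beside the spacer were Arg1, Megf6, Fndc1, Thbs2, Itgb4, Cpxm2, Pmfbp1 and C1qtnf3. Thbs2, a matricellular protein of connective tissue, stood at 505, 1500.0, 1173 and 1138 CPM beside the spacer in rats 1 to 4 and at 145, 211, 171 and 228 CPM beside the empty defect. Every spacer-side library was above every empty-defect library, and rat 1 was the lowest of the spacer side. Its log2FC was 2.52 (SE 0.54, adjusted p = 0.0257), and 2.75 without library 3a (SE 0.55, adjusted p = 0.00427). Megf6, which has EGF-like repeats, was at 18.1, 63.4, 58.2 and 58.7 CPM against 5.1, 7.79, 5.6 and 11.2 CPM, without overlap (log2FC 2.74, SE 0.54, adjusted p = 0.0216). Itgb4, the beta 4 integrin subunit that binds laminin, was at 22, 101, 63.3 and 65.8 CPM against 10, 20, 7.79 and 7.09 CPM. Its log2FC was 2.49 (SE 0.47, adjusted p = 0.0189), and in rat 1 the difference was the smallest of the 4 rats. Arg1 (arginase, an enzyme of macrophages activated for repair among other cells) was at 5.09, 13.9, 27.7 and 4.42 CPM against 1.18, 1.13, 1.42 and 2.67 CPM. It rose by a log2FC of 3.01 (SE 0.70, adjusted p = 0.0315, and 0.054 with the rat as a block). Fndc1, Cpxm2, Pmfbp1 and C1qtnf3 (adjusted p = 0.0514 with the block) rose with log2FC values of 2.60, 2.46, 2.44 and 2.44, each without overlap between the groups.

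**Figure D2:**
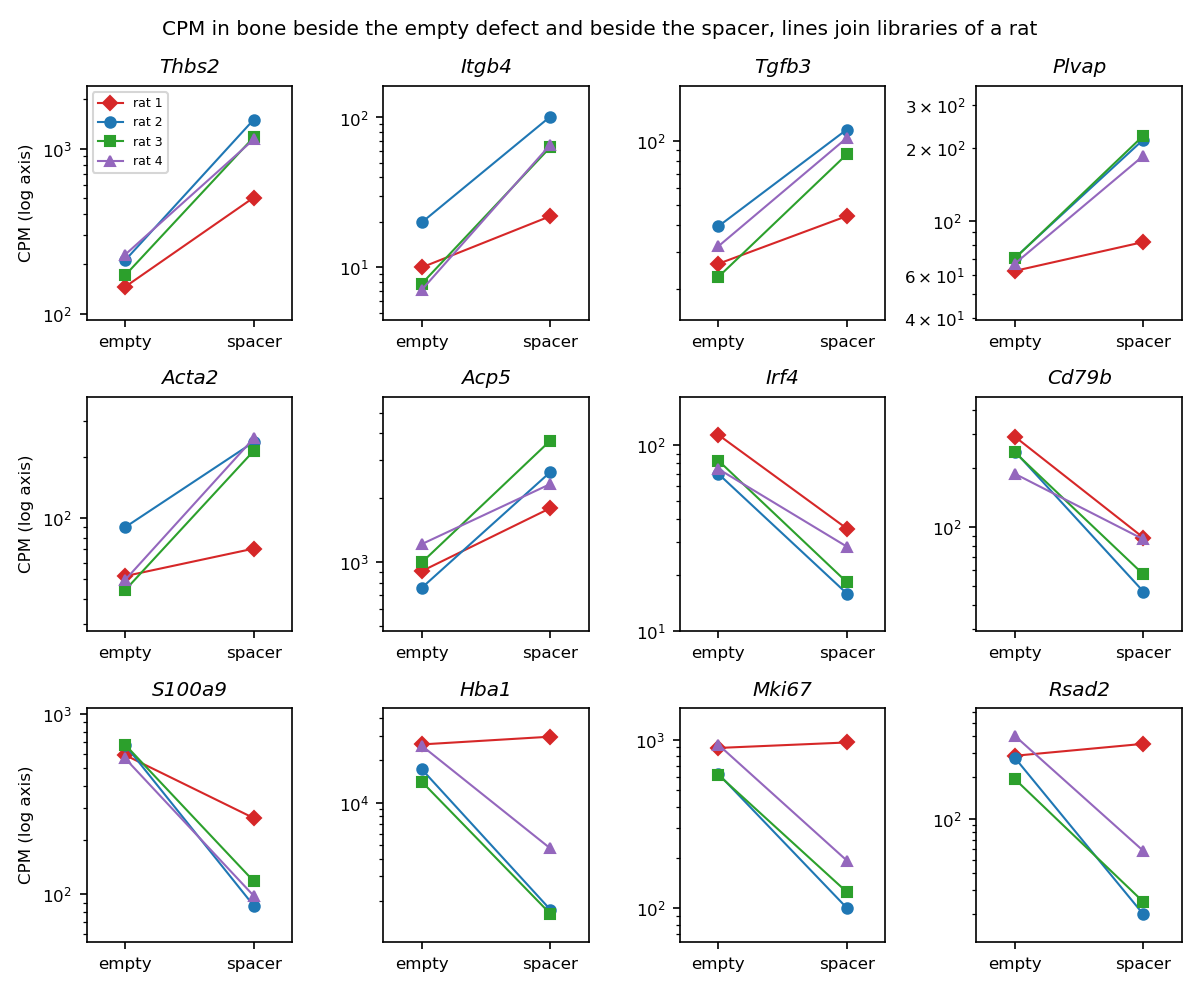
CPM (log axis) of 12 genes in bone beside the empty defect and beside the spacer, with a line joining the libraries of each rat. Thbs2, Itgb4, Tgfb3 and Plvap are higher beside the spacer in each rat, Irf4, Cd79b and S100a9 are lower in each rat, and Hba1, Mki67 and Rsad2 are lower in rats 2 to 4 and not in rat 1.

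Genes of fibrous matrix were higher beside the spacer, collagens and collagen cross-linking enzymes among them. Of 15 genes of fibrous matrix tested, 6 were called, all higher (Col3a1, Col6a2, Col14a1, Loxl2, Postn and Thbs2), 11 were called without library 3a and 12 showed no overlap between the 4 and 4 libraries, beside 12% of all genes that did so in this direction. The shares of all genes called higher were 3.51% with all libraries and 9.37% without library 3a. The list's median log2FC was 1.43, against -0.00873 over all genes tested. Col3a1 (type III collagen of soft connective tissue) was at 5184, 11201, 9993 and 8274 CPM beside the spacer and at 2157, 3202, 2148 and 3141 CPM beside the empty defect, where the groups stood far apart. Its log2FC was 1.70 (SE 0.41, adjusted p = 0.0338, and 0.053 with the block). Loxl2, which cross-links collagen, was at 54.4, 129, 91 and 125 CPM against 26.1, 32.2, 35.3 and 36.1 CPM (log2FC 1.62, SE 0.33, adjusted p = 0.0228). Col6a2, a chain of the pericellular type VI collagen, was at 978, 2237, 1914 and 1799.7 CPM against 437, 641, 562 and 628 CPM and rose by a log2FC of 1.61 (SE 0.37, adjusted p = 0.0313). The share of counts taken by the 15 genes was 1.66% in library 3a, 2.7 to 3.43% in the other spacer-side libraries and 0.806 to 1.23% beside the empty defect.

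Of 7 small leucine-rich proteoglycans, which bind collagen fibrils, Bgn, Fmod and Prelp were called higher with library 3a, and 3 were called without it. The shares of all genes called higher were 3.51% and 9.37% in these fits. Fmod was at 286, 1114, 745 and 1119 CPM beside the spacer and at 75.8, 124, 79.3 and 382 CPM beside the empty defect. The empty-defect library of rat 4 reached above the spacer-side library of rat 1, and the groups did not overlap without the latter. The log2FC of Fmod was 2.30 (SE 0.59, adjusted p = 0.0394), that of Prelp 1.76 (SE 0.44, adjusted p = 0.0371) and that of Bgn 1.42 (SE 0.38, adjusted p = 0.043). With the block their adjusted p-values were 0.0573, 0.0577 and 0.0657, and none of the 7 was called. Of 4 basement membrane genes, Col4a1 (log2FC 1.32, SE 0.33, adjusted p = 0.0378) and Lamc1 (0.77, SE 0.20, adjusted p = 0.0435) were called higher, as were 2 without library 3a, and neither was called with the block (adjusted p = 0.0603 and 0.0658).

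Among 20 matrix proteases and their inhibitors, 4 were called with all libraries, all higher, and 10 higher and 1 lower without library 3a. Of all genes, 3.51% were called higher with all libraries, and 9.37% higher and 10.5% lower without library 3a. Timp2, an inhibitor that also takes part in activating Mmp2, was at 369, 921, 657 and 511 CPM beside the spacer and at 179.9, 226, 226 and 248 CPM on the empty side (log2FC 1.48, SE 0.32, adjusted p = 0.0254). Mmp14, the membrane-bound collagenase that activates Mmp2, was at 436, 960.5, 963 and 682 CPM against 189, 209.7, 279.6 and 293 CPM (log2FC 1.65, SE 0.39, adjusted p = 0.0338). Mmp2 itself (log2FC 1.53, adjusted p = 0.0341, and 0.0511 with the block) and Adamts1, which cleaves proteoglycans (1.25, SE 0.29, adjusted p = 0.0327), also rose. None of these 4 overlapped between the groups. Mmp8, the collagenase of neutrophils, was the 1 member that fell without library 3a (log2FC -2.46, adjusted p = 0.00524), while Mmp13, the collagenase of cartilage and bone, averaged 3370.4 ± 1099.7 CPM (SD, n = 4) on the spacer side and 2190.5 ± 741 CPM (SD, n = 4) on the other side (adjusted p = 0.583).

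Genes of vessel walls were higher beside the spacer. All 15 endothelial genes tested had a positive fold change (median log2FC 0.82), 5 were called with all libraries (Flt1, Erg, Plvap, Vwf and Esam), 11 without library 3a and 3 with the block. Of all genes, 3.51%, 9.37% and 2.4% were called higher in these fits. Plvap, a protein of the diaphragms of fenestrated vessels, was at 82, 217, 225 and 186 CPM beside the spacer and at 62.4, 70.6, 70.3 and 66.9 CPM beside the empty defect. The 4 empty-defect libraries lay close together, rat 1 was little higher beside the spacer, and the other 3 rats were far higher. The log2FC of Plvap was 1.39 (SE 0.27, adjusted p = 0.021) and 1.63 without library 3a (SE 0.20, adjusted p = 0.000554). Flt1, a VEGF receptor, was at 30.5, 57.2, 52.8 and 35.3 CPM against 19, 24.7, 23.1 and 21.4 CPM (log2FC 0.99, SE 0.19, adjusted p = 0.0195). Erg, a transcription factor of endothelium, was at 24.7, 34.6, 29.6 and 30.4 CPM against 12.9, 19.8, 19.1 and 15.7 CPM (log2FC 0.82, SE 0.18, adjusted p = 0.025). Pecam1 and Cdh5, junction proteins that define the endothelium, were called without library 3a (log2FC 0.92 and 0.78, adjusted p = 0.012 and 0.0198) and not with it (adjusted p = 0.0692 and 0.109). The endothelial share of counts was 0.0854% in library 3a, 0.153 to 0.165% in the other spacer-side libraries and 0.0752 to 0.0968% beside the empty defect.

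Some contractile genes of smooth muscle and myofibroblasts were also called higher. Of the 12 tested, 9 had a positive fold change. In rats 1 to 4, 5, 3, 1 and 0 of them were lower beside the spacer. The share of counts of this list overlapped, at 0.115 to 0.323% beside the spacer and 0.0912 to 0.492% beside the empty defect. Acta2, smooth muscle actin, was at 70.7, 237, 215 and 248 CPM beside the spacer and at 51.7, 90.2, 44.1 and 49.6 CPM beside the empty defect. Rat 1 beside the spacer lay below rat 2 beside the empty defect, and the groups did not overlap without it. The log2FC of Acta2 was 1.71 (SE 0.36, adjusted p = 0.025), and 1.99 without library 3a (SE 0.29, adjusted p = 0.000917). Tagln (1.78, SE 0.41, adjusted p = 0.0313), Actg2 (1.98, SE 0.43, adjusted p = 0.0263) and Smtn (0.93, SE 0.24, adjusted p = 0.0421, and 0.0652 with the block) were the other called members of the 12 tested, all higher. Without library 3a, 7 were called, with Myh11, the smooth muscle myosin heavy chain, among them (log2FC 1.70, adjusted p = 0.00826). The shares of all genes called higher were 3.51% with all libraries and 9.37% without library 3a, where 10.5% were called lower. Markers of skeletal muscle took 0.201 to 1.25% of counts beside the spacer and 0.414 to 4.55% beside the empty defect. Their part in these values was not tested. Of 14 genes of mesenchymal progenitors and stroma, 2 were called higher with all libraries, and 6 higher and 1 lower without library 3a. The list was mixed, with a positive fold change in 9 of the 14. Its share of counts was 0.339 to 0.479% beside the spacer and 0.423 to 0.598% beside the empty defect. Prrx1, a transcription factor of limb mesenchyme, was at 41.2, 72.4, 76.3 and 67.7 CPM against 23.4, 26.5, 40.6 and 33.5 CPM (log2FC 1.05, SE 0.23, adjusted p = 0.0263). Eng, a TGF-beta co-receptor, also rose (1.10, SE 0.28, adjusted p = 0.0378, and 0.0592 with the block). Cxcl12, a chemokine of marrow stroma that holds blood-forming cells, was at 3065, 1144, 1264 and 1846 CPM beside the spacer against 2677, 2439.8, 3710.5 and 3312 CPM and fell without library 3a (log2FC -1.10, SE 0.31, adjusted p = 0.025).

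Among the signalling pathways, the members called with all libraries were higher beside the spacer in each list, and they ranged over ligands, receptors and inhibitors. Over all genes, 3.51% were called higher with all libraries and 9.37% without library 3a, and lists with few calls lie near these shares. In the TGF-beta and activin list, 6 of 20 were called, among them the ligands Tgfb2, Tgfb3 and Inhba, the receptor Tgfbr2 and the latency protein Ltbp3. Without library 3a, 10 were called, all higher. Tgfb3 was at 44.2, 113, 86.2 and 103 CPM beside the spacer and at 26.4, 39.6, 22.9 and 31.9 CPM beside the empty defect, without overlap (log2FC 1.52, SE 0.27, adjusted p = 0.0174). Tgfb2 was at 55.2, 66.3, 61.2 and 64.6 CPM against 21.7, 31.7, 29.1 and 40.9 CPM (log2FC 1.00, SE 0.22, adjusted p = 0.0262), and here rat 1 had the largest ratio of the 4 rats. Ltbp3, which stores the ligands in the matrix, was at 153, 285, 267 and 246 CPM against 90.1, 99.1, 122 and 105 CPM (log2FC 1.19, SE 0.25, adjusted p = 0.023). Inhba (2.43, adjusted p = 0.04) was not called with the block (adjusted p = 0.0665).

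In the BMP list 4 of 21 members were called, and Nbl1 and Chrd among them encode secreted proteins that bind BMPs and block them. Without library 3a, 8 were called higher and 1 lower. Nbl1 was at 114, 371, 202 and 227 CPM beside the spacer and at 77.6, 106, 87 and 65.9 CPM on the empty side (log2FC 1.44, SE 0.30, adjusted p = 0.023). Id3, a transcriptional target of BMP signalling, was also called (0.89, SE 0.22, adjusted p = 0.0358). The ligand Bmp2, which drives fracture healing, was at 15.4, 11.9, 13.2 and 16.4 CPM against 9.74, 12.4, 15.6 and 12.9 CPM, with overlapping groups (log2FC 0.17, SE 0.37, adjusted p = 0.816).

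In the Wnt list 5 of 27 were called: the ligands Wnt5a and Wnt5b, the receptor Fzd2 and the secreted modulators Sfrp2 and Dkk3, all higher, with 8 called without library 3a. Fzd2 was at 6.94, 22, 18.4 and 18.1 CPM beside the spacer and at 3.79, 4.4, 4.53 and 4.79 CPM on the empty side (log2FC 1.90, SE 0.41, adjusted p = 0.0263). Dkk3 was at 143, 337, 221 and 233 CPM against 57.7, 71.2, 79.4 and 86.3 CPM (1.67, SE 0.37, adjusted p = 0.0283). Sfrp2 overlapped between the groups through rat 1 (1.65, SE 0.40, adjusted p = 0.0345, and 0.0509 with the block). Of 16 Hedgehog and Notch genes, Notch3, Jag1, Hey2 and Heyl were called, all of the Notch pathway, and 11 were called without library 3a, Gli1 among them. Notch3, the receptor of mural cells of vessels, was at 82.9, 204, 172 and 179.7 CPM against 56.5, 85.9, 79.5 and 59.8 CPM (1.18, SE 0.27, adjusted p = 0.029). Its target Heyl was at 24.7, 60.9, 50.3 and 59.2 CPM against 15.1, 25, 20.8 and 23.2 CPM (1.21, SE 0.27, adjusted p = 0.0277). The ligand Jag1 rose with a log2FC of 0.90 (SE 0.22, adjusted p = 0.0341).

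Pdgfa, a growth factor for mesenchymal cells, was the 1 called member of 12 PDGF and FGF genes (3 without library 3a), at 26.4, 46.2, 60.8 and 46.9 CPM beside the spacer and at 16.6, 15.6, 20.7 and 24.1 CPM on the empty side (log2FC 1.23, SE 0.21, adjusted p = 0.0174). Pgf, a VEGF family ligand, was the 1 called of 10 VEGF and angiopoietin genes (0.90, SE 0.22, adjusted p = 0.0357, and 0.0509 with the block). Without library 3a, 1 of the 10 rose and 1 fell, beside 9.37% and 10.5% of all genes. Vegfa was at 147, 241, 242 and 211 CPM against 114, 186, 132 and 144 CPM and was not called (0.55, SE 0.44, adjusted p = 0.468). Of 10 IGF genes (5 called without library 3a) the binding proteins Igfbp3 (1.01, SE 0.23, adjusted p = 0.0313) and Igfbp7 (0.85, SE 0.23, adjusted p = 0.0498) rose, and neither was called with the block (adjusted p = 0.0535 and 0.0733). Among 13 genes induced by low oxygen (3 called without library 3a), Car9, a carbonic anhydrase, was called (1.98, SE 0.48, adjusted p = 0.0341), while the glycolytic enzymes Ldha (-0.17, adjusted p = 0.861) and Pgk1 (-0.02, adjusted p = 0.977) were not. Of 20 immediate early genes (3 called without library 3a), Junb (0.98, SE 0.25, adjusted p = 0.0397, and 0.0554 with the block) and Ier3 (0.75, SE 0.16, adjusted p = 0.025) were called.

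**Figure D3:**
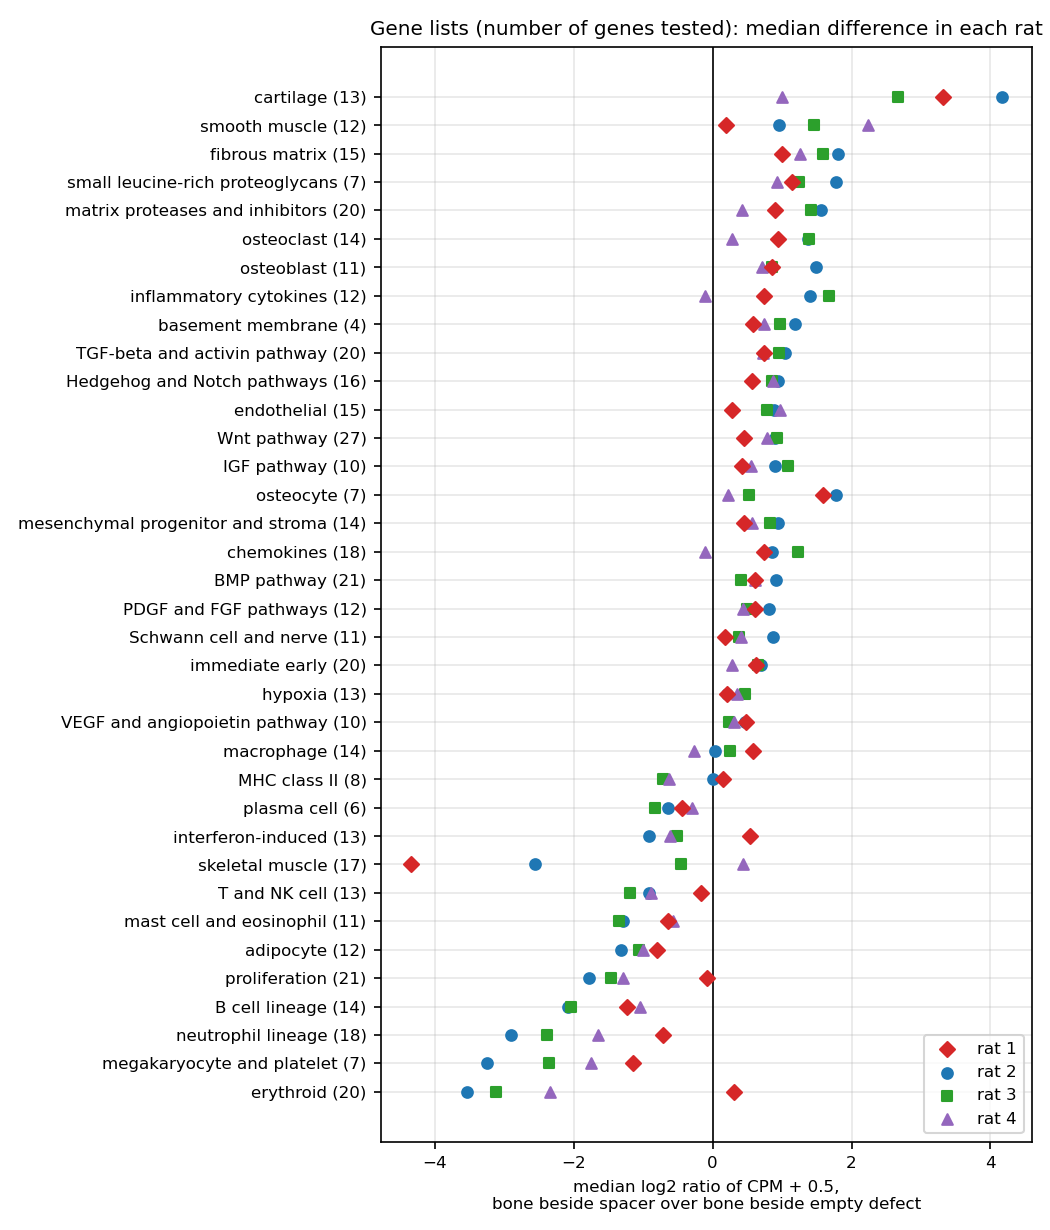
Median over each gene list of the log2 ratio of CPM + 0.5, spacer side over empty-defect side, in each of the 4 rats. The cartilage list lies at 0.995 to 4.17 and the fibrous matrix list at 1 to 1.81, while the erythroid list lies at 0.307 in rat 1 and at -3.54 to -2.35 in the other rats.

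The chemokines Cxcl2 and Cxcl3, which attract neutrophils, and the cytokine Il6 had the largest fold changes of the tested members of their lists, from low counts. Cxcl2 had 78, 638, 1371 and 28 counts beside the spacer and 5, 6, 6 and 19 counts beside the empty defect, and in rat 4 the levels were 0.396 and 0.415 CPM. Cxcl3 had 14, 64, 193 and 17 counts against 0, 6, 2 and 0 counts. Il6 had 27, 191, 467 and 55 counts against 13, 22, 14 and 4 counts. For all 3 the libraries of rats 2 and 3 beside the spacer were the highest, and the spread among the spacer-side libraries was wide. The log2FC values were 5.64 for Cxcl2 (SE 1.15, adjusted p = 0.023), 5.11 for Cxcl3 (SE 1.14, adjusted p = 0.0285) and 3.75 for Il6 (SE 0.94, adjusted p = 0.0364). They were the 2 called of 18 chemokines and the 1 called of 12 inflammatory cytokines, beside 3.51% of all genes called higher. Without library 3a, 4 chemokines rose, 1 fell and 2 cytokine genes rose, beside 9.37% of all genes called higher and 10.5% called lower. Nos2, the inducible nitric oxide synthase, was at 11.4, 37, 93.1 and 4.37 CPM against 2.82, 6.98, 3.32 and 5.6 CPM, again highest in rats 2 and 3 beside the spacer (2.96, adjusted p = 0.0895, and 0.0364 without library 3a).

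In rat 4 Il6 was higher beside the spacer and Cxcl2 was not. The promoters of Cxcl2 and Il6 are shown because both genes were highest beside the spacer in rats 2 and 3. They are the 250 bases before the start of each gene in RefSeq, assembly GRCr8, at chr14:17467256-17467505 (minus strand) and chr4:5894576-5894825 (minus strand), written 5′ to 3′ with matches to the kappaB motif in capitals.
Cxcl2: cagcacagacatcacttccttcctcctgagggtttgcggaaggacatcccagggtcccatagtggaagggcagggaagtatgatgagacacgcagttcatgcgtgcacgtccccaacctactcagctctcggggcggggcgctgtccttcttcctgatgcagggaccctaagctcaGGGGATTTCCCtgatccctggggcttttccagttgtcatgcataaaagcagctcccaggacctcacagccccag
Il6: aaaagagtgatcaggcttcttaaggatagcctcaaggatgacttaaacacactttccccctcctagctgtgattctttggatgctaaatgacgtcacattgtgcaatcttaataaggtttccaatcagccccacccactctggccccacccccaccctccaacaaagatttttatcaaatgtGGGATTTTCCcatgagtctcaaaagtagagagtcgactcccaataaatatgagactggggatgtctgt
Cxcl2 held 3 overlapping matches in a single stretch and Il6 held 1 match. The motif, the 10-letter binding motif of NF-kappaB, was searched on both strands. It was found in 3.54% of the 33469 promoters of this length in the table. Among the lists, 4 of the 11 chemokines and 2 of the 9 cytokines with a promoter in the table held it, uncalled genes included. Other motifs were searched in other lists and gave no match. The CArG box was in 0 of 9 smooth muscle promoters, beside 1.5% of all promoters. The EBF motif was in 0 of 9 B cell lineage promoters, beside 0.74% of all promoters. A match is a description of the letters and no measure of binding.

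The count of calls for cells that make and resorb bone depended on the libraries fitted. Of 11 osteoblast genes none was called with all libraries or without library 3a (2 at an unadjusted p under 0.05), although all 11 had a positive fold change with a median of 0.92. With edgeR on the 8 bone libraries alone, 4 were called higher, and 7 when library 3a was also left out. Of all genes, these fits called 1149 and 2527 higher. DESeq2 called 1 and limma-voom 6, and with the block Alpl and Pth1r were called (adjusted p = 0.0469 and 0.0303), genes picked out here after their values were seen. Col1a1, the main collagen of bone, was at 50572, 72099, 79289 and 77473 CPM beside the spacer and at 28305, 17386, 43824 and 37297 CPM beside the empty defect. The groups did not overlap, yet the spread among the libraries was wide and the log2FC of 1.14 (SE 0.56) was not called (adjusted p = 0.226). Bglap was at 2035, 2504, 2477 and 2635 CPM against 1830.1, 914, 2689.5 and 1615 CPM, with overlapping groups (0.45, SE 0.83, adjusted p = 0.771). The osteoblast list took 6.53% of counts in library 3a, 9.19 to 10.2% in the other spacer-side libraries and 2.51 to 6.29% beside the empty defect. Sparc, a mineral-binding matrix protein of bone and other connective tissues, was at 18676, 23732, 22914 and 25267 CPM against 11809, 6784, 15329 and 16275 CPM (0.85, SE 0.39, adjusted p = 0.192).

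Of 7 osteocyte genes none was called with all libraries (2 at an unadjusted p under 0.05, edgeR on the 8 bone libraries alone 1, DESeq2 1, limma-voom 2). Of all genes, edgeR on the 8 bone libraries alone called 1149 higher, DESeq2 950 and limma-voom 3175. Sost, the Wnt inhibitor of osteocytes, was at 32.6, 12.7, 13.6 and 22.1 CPM beside the spacer and at 7.14, 5.35, 23 and 20.1 CPM beside the empty defect, higher beside the spacer in rats 1, 2 and 4 and lower in rat 3 (0.54, SE 1.01, adjusted p = 0.774). Dmp1, a phosphoprotein that controls mineralisation, was at 1647, 1219, 1417 and 1361 CPM against 549.6, 346, 979 and 1172 CPM (0.89, SE 0.89, adjusted p = 0.564). Gja1, the gap junction protein that links osteocytes, was at 1399, 1474, 1929 and 1346 CPM against 663, 431, 1248 and 1335 CPM (0.74, SE 0.45, adjusted p = 0.322). Without library 3a, Fam20c, a kinase of the mineralising matrix, was called (0.91, adjusted p = 0.0461). It was the 1 called of 7 in that fit, beside 9.37% of all genes called higher.

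Of 14 osteoclast genes none was called with all libraries (6 at an unadjusted p under 0.05, DESeq2 3, limma-voom 10 higher and 1 lower). With edgeR on the 8 bone libraries alone, 7 were called higher, and 11 higher and 1 lower when library 3a was also left out. Of all genes, these fits called 1149 higher, and 2527 higher and 2575 lower. Between the groups 8 showed no overlap, all higher beside the spacer, beside 12% of all genes in this direction. Acp5, the tartrate-resistant acid phosphatase, was at 1788, 2637, 3701 and 2318 CPM beside the spacer and at 907, 758, 996 and 1214 CPM beside the empty defect (1.43, SE 0.58, adjusted p = 0.153). Ctsk, the protease that digests bone collagen, was at 5107, 6749, 10079 and 4532 CPM against 2232, 1809, 2934 and 3770.1 CPM (1.30, SE 0.50, adjusted p = 0.133). Rat 3 was the highest beside the spacer in both. Tcirg1, a proton pump subunit, rose without library 3a (1.42, adjusted p = 0.0318). Car2, a carbonic anhydrase shared with red cells, fell without it (-1.77, adjusted p = 0.0305) and was at 1718, 231, 364 and 362 CPM against 1198, 912, 858 and 1372 CPM. In that fit 1 of the 14 was called higher and 1 lower, beside 9.37% and 10.5% of all genes.

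Of 5 regulators of osteoclasts none was called with all libraries (3 at an unadjusted p under 0.05, DESeq2 1, limma-voom 4), 1 with edgeR on the 8 bone libraries alone and 4 when library 3a was also left out. Of all genes, the fits on the bone libraries alone called 1149 higher with library 3a and 2527 without it. Tnfsf11 (RANKL, the cytokine that drives osteoclast formation) was at 8.71, 6.99, 12.8 and 10 CPM beside the spacer and at 4.06, 2.45, 5.66 and 4.61 CPM beside the empty defect, without overlap (1.20, SE 0.51, adjusted p = 0.165). Its decoy receptor Tnfrsf11b was at 25, 17.2, 17.7 and 21.1 CPM against 7.66, 6, 13 and 25.1 CPM, with rat 4 going the other way (0.65, SE 0.45, adjusted p = 0.399). Csf1r, the receptor that their precursors need, stood at 606 ± 125 CPM (SD, n = 4) against 413 ± 80 CPM (SD, n = 4) (0.55, adjusted p = 0.236). Il34, a ligand of that receptor, rose without library 3a (1.18, adjusted p = 0.00684). It was the 1 called of 5 in that fit, beside 9.37% of all genes called higher.

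Cartilage genes were higher beside the spacer in every rat: all 13 tested had a higher CPM on the spacer side in each of the 4 rats, with a median log2FC of 1.30. None was called with all libraries, without library 3a or with the block (2 at an unadjusted p under 0.05, and 9 with the block), DESeq2 called 0 and limma-voom 11. The cartilage values turned on rat 4. Without its empty-defect library 5 of the 13 were called higher (11 at an unadjusted p under 0.05) with a median log2FC of 4.25, and 7 when library 3a was also left out. Without its spacer-side library none was called and the median was 0.58, and with the block the median was 2.57. Col2a1, the main collagen of cartilage, was at 809, 2487, 4562 and 11186 CPM beside the spacer and at 9.44, 13.6, 439 and 5149 CPM beside the empty defect. Rat 4 was the highest on both sides, so the groups overlapped although each rat differed in the same direction (1.76, SE 1.67, adjusted p = 0.54). Comp, a glycoprotein of cartilage and tendon matrix, was at 82.4, 299.5, 278 and 695 CPM against 3.89, 15.1, 30.5 and 285 CPM (2.02, SE 0.97, adjusted p = 0.218), and Ihh, made by maturing chondrocytes, at 1.84, 5.77, 9.85 and 24.1 CPM against 0.277, 0.411, 0.768 and 8.53 CPM (2.07, adjusted p = 0.241). Comp and Ihh were named after their values were seen.

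The lists of blood-forming cells went the other way, and here library 3a changed the counts. Of 20 erythroid genes 0 were called by edgeR with all libraries (0 at an unadjusted p under 0.05, DESeq2 0, limma-voom 19 lower) and 18 were called without library 3a, all lower. The share of all genes called lower without library 3a was 10.5%. Hba1, an alpha globin gene, was at 29505, 1736, 1622 and 4732 CPM beside the spacer and at 25990.0, 17294, 14116 and 25433 CPM beside the empty defect. In rats 2 to 4 the spacer side was far lower, and in rat 1 it was slightly higher. The log2FC was -1.14 (SE 0.82, adjusted p = 0.415) with library 3a and -2.94 (SE 0.69, adjusted p = 0.0098) without it. Alas2, the first enzyme of haem synthesis in red cells, was at 994, 56.4, 71.9 and 206 CPM against 896, 850.2, 565 and 907 CPM (-1.28, SE 0.78, adjusted p = 0.334, and -2.85, adjusted p = 0.0109, without library 3a). Slc4a1, the anion exchanger of the red cell membrane, was at 2254, 107, 112 and 328 CPM against 1703, 1578, 1056 and 1714 CPM (-1.11, adjusted p = 0.444, and -3.05, adjusted p = 0.0098). Hbb and Hba2 were likewise higher beside the spacer in rat 1 and lower in rats 2 to 4, and values of these near-identical globin genes are uncertain because shared reads may have been split. Over the 20 genes, 20 were higher beside the spacer in rat 1, and 20, 19 and 20 were lower in rats 2 to 4. All were detected in every bone library except Hbe1, an embryonic globin, which had 0 counts in the spacer-side library of rat 2.

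The count for genes of dividing cells also depended on library 3a. Of 21 proliferation genes 0 were called by edgeR with all libraries (11 at an unadjusted p under 0.05, DESeq2 3, limma-voom 21) and 21 without library 3a, all lower, of which 16 were called in all 7 fits that left out a further bone library. The share of all genes called lower without library 3a was 10.5%. Mki67, a marker of cycling cells, was at 961, 101, 125 and 192 CPM beside the spacer and at 892, 626, 617 and 931 CPM beside the empty defect (-1.15, SE 0.61, adjusted p = 0.261, and -2.46, SE 0.45, adjusted p = 0.00289, without library 3a). Top2a, which untangles DNA in mitosis, was at 331, 69.5, 77.5 and 105 CPM against 411, 283, 283 and 406 CPM (-1.25, adjusted p = 0.112, and -2.04, adjusted p = 0.00175). The share of the proliferation list was 0.43% in library 3a, 0.0872 to 0.146% in the other spacer-side libraries and 0.344 to 0.482% beside the empty defect. Library 3a thus lay within the empty-defect range for proliferation and above it for erythroid genes, and the part of erythroid cells in the proliferation values was not tested.

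**Figure D4:**
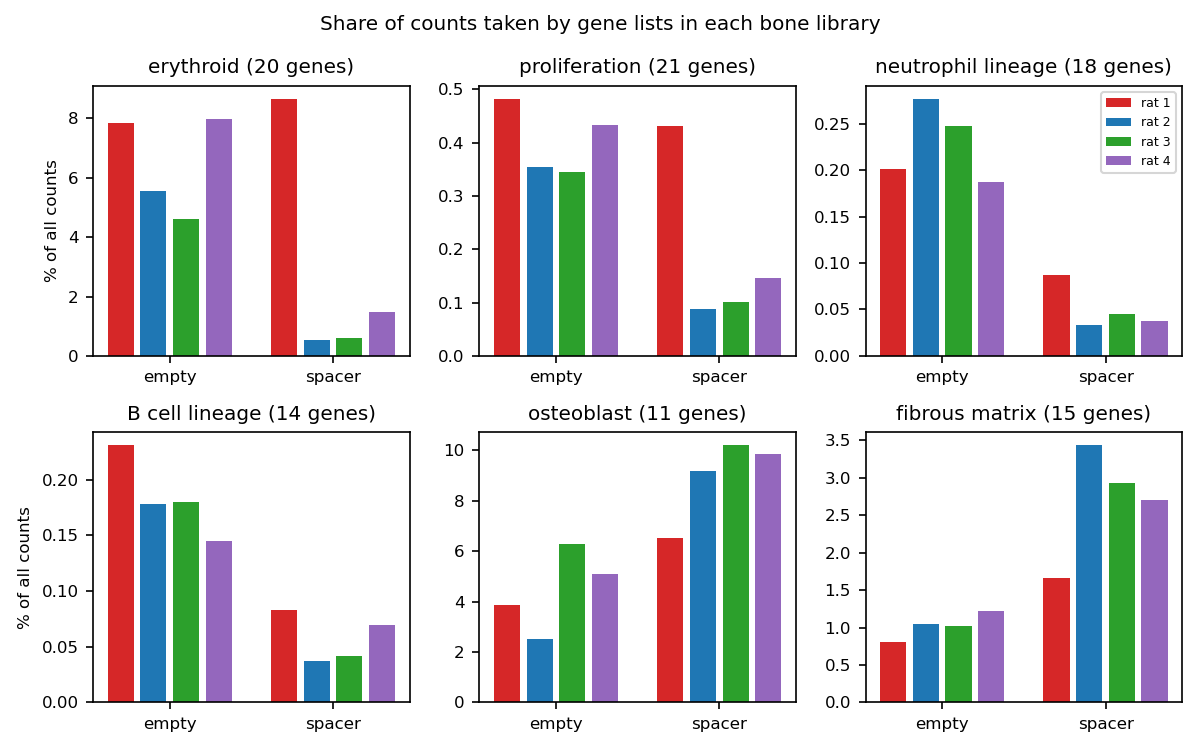
Share of all counts (%) taken by 6 gene lists in each bone library, by side and rat. The spacer-side bar of rat 1 lies with the empty-defect bars for the erythroid and proliferation lists, at 8.66% and 0.43%, and below them for the neutrophil and B cell lists, at 0.087% and 0.0825%.

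**Figure D5:**
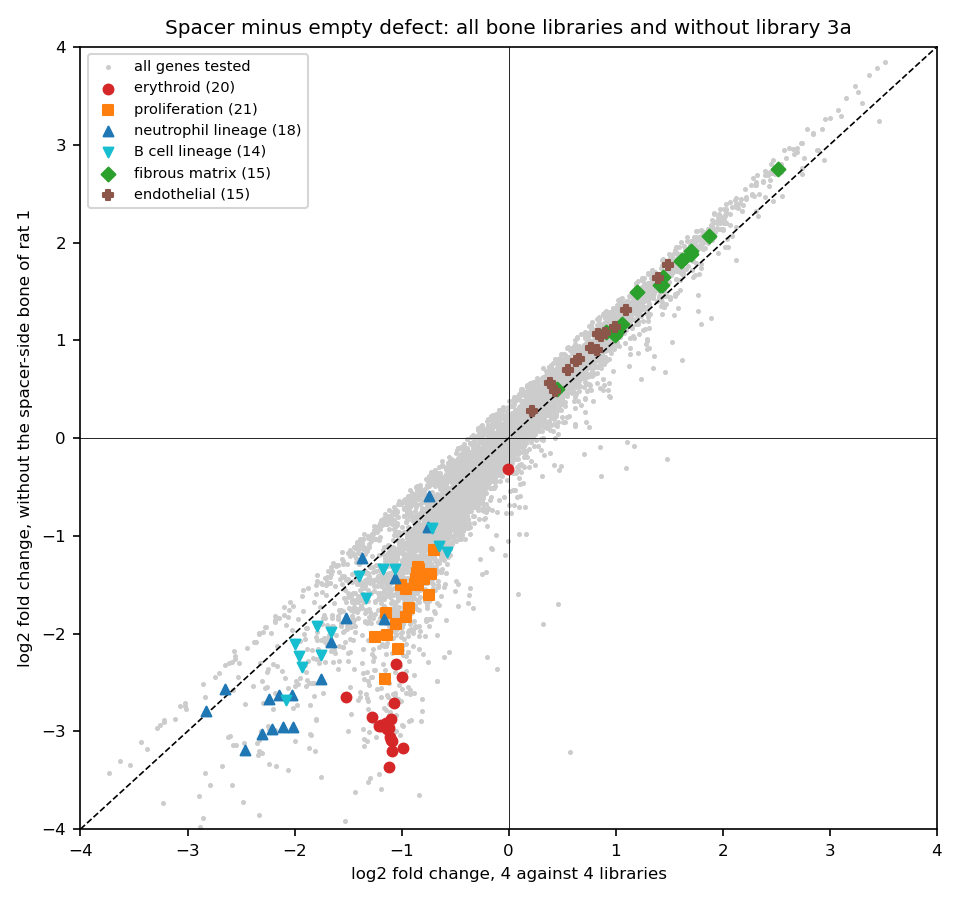
Log2FC of each gene tested with all 8 bone libraries (horizontal axis) and without the spacer-side library of rat 1 (vertical axis), with 6 lists in colour, a dashed line of equality and 28 genes outside the plotted range. Erythroid genes move from a median of -1.12 to -2.94 and proliferation genes from -0.87 to -1.51, while fibrous matrix and endothelial genes stay near the line.

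In rat 1 too, most neutrophil and B cell genes had a lower CPM beside the spacer, with 3 of 18 and 2 of 14 higher. Of 18 genes of the neutrophil lineage 5 were called with all libraries (S100a8, S100a9, Ngp, Camp and Np4), all lower, 14 without library 3a, 2 with the block and 13 by DESeq2. The shares of all genes called lower were 1.4% with all libraries, 10.5% without library 3a and 1.14% with the block. The list's median log2FC was -2.02, and -2.60 without library 3a. Its 18 genes took 0.0338 to 0.087% of counts beside the spacer and 0.188 to 0.277% beside the empty defect, and 11 of them showed no overlap, beside 7.05% of all genes in this direction. S100a9, a calcium-binding protein of neutrophils, was at 265, 86.6, 118 and 98.3 CPM beside the spacer and at 593, 673, 676 and 568 CPM beside the empty defect (-2.14, SE 0.56, adjusted p = 0.0401, and 0.0559 with the block). Ngp, a protein of secondary granules, was at 17.7, 19.6, 25 and 15.6 CPM against 129, 224, 159 and 43.2 CPM (-2.83, SE 0.65, adjusted p = 0.0313), and Camp, the antimicrobial cathelicidin, at 12.2, 15.5, 17.3 and 14.1 CPM against 77.1, 132, 96.5 and 65.1 CPM (-2.65, SE 0.68, adjusted p = 0.0397). In Ngp and Camp rat 1 was as low beside the spacer as the other rats. S100a8 was at 133 CPM in library 3a and 47.9 to 63.7 CPM in the other spacer-side libraries. Np4 was at 68.9 CPM in library 3a and 15.5 to 22.6 CPM in the others. S100a8 (-2.24, adjusted p = 0.0467) and Np4, a defensin with near-identical relatives whose values are uncertain (-2.46, adjusted p = 0.0469), fell and were not called with the block (adjusted p = 0.0646 and 0.0647). Mpo and Elane, made at the early granule stage, were at 57 and 11.9 CPM in library 3a, 9.22 to 16.6 and 2.49 to 3.14 CPM in the other spacer-side libraries, and 57.1 to 145 and 10.2 to 36.5 CPM beside the empty defect. They were called without library 3a (adjusted p = 0.0188 and 0.018) and not with it (adjusted p = 0.132 and 0.113).

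Of 14 genes of the B cell lineage 7 were called with all libraries (Cd79b, Ms4a1, Ebf1, Cd22, Vpreb3 and Spib among them), all lower, 10 without library 3a, 4 with the block, 11 by DESeq2 and 14 by limma-voom. Of all genes, 1.4% were called lower with all libraries, 10.5% without library 3a and 1.14% with the block. Cd79b, a chain of the B cell receptor complex, was at 88.2, 46.6, 57.2 and 86.5 CPM beside the spacer and at 291, 244, 242 and 188 CPM beside the empty defect, without overlap (-1.79, SE 0.38, adjusted p = 0.025). Spib, a transcription factor of B cells and plasmacytoid dendritic cells, was at 129, 66.3, 82.2 and 147 CPM against 602, 407, 381 and 308 CPM (-2.00, SE 0.39, adjusted p = 0.0212). Cd22, an inhibitory receptor of B cells, was at 38.6, 16.1, 16.8 and 26.9 CPM against 60.6, 63.7, 68.3 and 55.5 CPM (-1.33, SE 0.28, adjusted p = 0.023). Ikzf3, a lymphocyte transcription factor outside the list, was at 4.79, 2.53, 2.56 and 2.86 CPM against 17.1, 16.7, 21.4 and 14.8 CPM (-2.46, SE 0.34, adjusted p = 0.0174), and Klhl14 at 4.6, 1.51, 2.24 and 3.52 CPM against 15.5, 11.6, 16.8 and 12.8 CPM (-2.26, SE 0.38, adjusted p = 0.0174). Rag1, the recombinase of developing lymphocytes, was at 77.4, 22.5, 21.5 and 47.8 CPM against 187, 131, 131 and 121 CPM and was called without library 3a (-2.22, adjusted p = 0.0228). The list's share of counts was 0.0373 to 0.0825% beside the spacer and 0.145 to 0.231% beside the empty defect.

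The remaining blood lineages held few calls with all libraries, though many of their genes were lower without overlap, beside 7.05% of all genes. These were 5 of 7 megakaryocyte, 6 of 13 T and NK cell and 6 of 11 mast cell and eosinophil genes. Of 6 plasma cell genes, 3 were lower and 1 higher without overlap. All 7 megakaryocyte genes were lower beside the spacer in each rat. Over all genes, 1.4% were called lower with all libraries and 10.5% without library 3a. Irf4, a transcription factor of plasma cells and other lymphocytes, was at 35.6, 15.9, 18.3 and 28.4 CPM beside the spacer and at 114, 70.2, 82.8 and 74.5 CPM beside the empty defect (-1.80, SE 0.24, adjusted p = 0.0174), the 1 called of 6 plasma cell genes. The plasma cell share itself was 0.0274 to 0.063% beside the spacer and 0.0232 to 0.0314% beside the empty defect, and Sdc1, also made by other cells, rose without library 3a (1.76, adjusted p = 0.0208). Gp5, a platelet glycoprotein, was at 2.17, 0.238, 0.512 and 0.934 CPM against 7.18, 8.61, 4.67 and 5.99 CPM (-2.79, SE 0.66, adjusted p = 0.0338), the 1 called of 7 megakaryocyte genes, of which 6 were called without library 3a. Cd3g, a T cell receptor chain, was at 11, 5.75, 6.34 and 9.52 CPM against 29.5, 19.4, 23.7 and 25.2 CPM (-1.58, SE 0.39, adjusted p = 0.035, and 0.0538 with the block), the 1 called of 13 T and NK cell genes (3 without library 3a). Kit, the receptor of mast cells and blood progenitors, was at 33.9, 24.1, 23.5 and 31.3 CPM against 52.7, 48.2, 52.5 and 46.2 CPM (-0.83, SE 0.22, adjusted p = 0.0429, and 0.0524 with the block), the 1 called of 11 mast cell and eosinophil genes (3 without library 3a).

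Macrophage genes were near even: of 14 tested, 8 had a positive fold change and 0 were called by edgeR (1 higher and 1 lower at an unadjusted p under 0.05, DESeq2 0, limma-voom 3 higher and 3 lower, edgeR on the 8 bone libraries alone 2 higher and 1 lower), with a share of counts of 0.171 to 0.227% beside the spacer and 0.171 to 0.219% beside the empty defect. Of all genes, limma-voom called 3175 higher and 3069 lower, and edgeR on the 8 bone libraries alone 1149 and 618. Cd163, the scavenger receptor of macrophages for haemoglobin, fell without library 3a (-1.67, adjusted p = 0.0378). It was the 1 macrophage gene called in that fit, where 10.5% of all genes were called lower. Gpnmb, a protein of macrophages and osteoclasts, averaged 636 ± 142 CPM (SD, n = 4) on the spacer side and 446 ± 207 CPM (SD, n = 4) on the other side (0.51, adjusted p = 0.565). Of 8 MHC class II genes 0 were called with or without library 3a (0 at an unadjusted p under 0.05 with it, DESeq2 0, limma-voom 0), and Cd74, their invariant chain, was at 1206, 1088, 1236 and 956 CPM against 1145, 1176, 1971 and 1496 CPM (-0.37, SE 0.37, adjusted p = 0.572). Of 13 interferon-induced genes 0 were called with all libraries (1 at an unadjusted p under 0.05, DESeq2 0, limma-voom 1 higher and 3 lower) and Ifit1, Rsad2 and Irf9 fell without library 3a. Rsad2, an antiviral enzyme, was at 352, 20, 24.7 and 58.1 CPM beside the spacer and at 288, 277, 194 and 402 CPM beside the empty defect, the same split of rat 1 from the others as for the globins (-1.35, SE 0.79, adjusted p = 0.31, and -3.08, SE 0.66, adjusted p = 0.00602).

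Under the same limits on level and overlap, the 2 largest falls among called genes were in genes of fast skeletal muscle fibres. Myh4, the fast IIb myosin heavy chain, was at 18.3, 62.8, 109 and 45.7 CPM beside the spacer and at 1506, 882, 181 and 564 CPM beside the empty defect (-3.73, SE 0.91, adjusted p = 0.0345, and 0.0533 with the block). Pvalb, a calcium buffer of the same fibres, was at 5.79, 25.4, 45.6 and 19.1 CPM against 508, 278, 50.9 and 101 CPM (-3.29, SE 0.89, adjusted p = 0.0467, and 0.0723 with the block). These were the 2 called of 17 skeletal muscle genes with and without library 3a, and none was called with the block. The difference was widest in rats 1 and 2, and in rat 4 the list went the other way, with a median within-rat log2 ratio of 0.443 and 12 of 17 genes higher beside the spacer. The slow myosin heavy chain Myh7 was at 329, 1935, 321 and 859 CPM against 819.9, 2374, 511 and 75.4 CPM (-0.13, SE 0.82, adjusted p = 0.937). Reads shared between myosin heavy chains may have been split, so these values are uncertain.

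Fat cell genes stood lower beside the spacer without calls in the full set: of 12 tested 0 were called by edgeR (6 at an unadjusted p under 0.05, DESeq2 0, limma-voom 8, edgeR on the 8 bone libraries alone 4 lower), and Plin1, Lpl and Pparg fell without library 3a. Lpl, the lipase that releases fatty acids from lipoproteins, was at 329, 178, 149 and 183 CPM beside the spacer and at 293, 339, 313 and 369 CPM beside the empty defect (-0.65, SE 0.25, adjusted p = 0.141, and -0.95, SE 0.22, adjusted p = 0.0098). Adipoq, the hormone of mature fat cells, was at 27.4, 3.51, 5.17 and 9.44 CPM against 90.8, 43.5, 34.5 and 56.4 CPM, without overlap in either set (-2.31, adjusted p = 0.175, and -3.22, adjusted p = 0.0574). Of 11 Schwann cell and nerve genes 0 were called with all libraries (3 at an unadjusted p under 0.05, DESeq2 2, limma-voom 5 higher and 1 lower, edgeR on the 8 bone libraries alone 2), and Pmp22, a myelin protein also made by fibroblasts, was at 118 ± 20.4 CPM (SD, n = 4) against 70.8 ± 13.3 CPM (SD, n = 4) (0.74, adjusted p = 0.0928, and 0.0407 without library 3a). Of 5 genes of synovial lining 0 were called with all libraries (1 higher and 1 lower at an unadjusted p under 0.05, DESeq2 0, limma-voom 1 higher and 1 lower), and Clic5 was at 52.3 ± 18.4 CPM (SD, n = 4) against 75.8 ± 48.2 CPM (SD, n = 4) (-0.54, adjusted p = 0.654). Without library 3a, Cd55, a cell surface protein that blocks complement, fell (-1.51, SE 0.31, adjusted p = 0.00522), and it was called in all 7 fits that left out a further bone library. Without library 3a, 9.37% of all genes were called higher and 10.5% lower. With all libraries limma-voom called 3175 of all genes higher and 3069 lower, and edgeR on the 8 bone libraries alone 1149 and 618. Without the empty-defect library of rat 4, 1 member of the synovial lining and hyaluronan list was called higher.

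The called genes were also set beside the 4 libraries of the membrane from the spacer limb. Of the 451 genes higher beside the spacer, 293 (65%) had a mean CPM in the membrane above that in spacer-side bone, against 52% of all genes tested. Of the 180 lower genes, 34 (18.9%) did. Itgb4, for example, was at 37.6 to 113 CPM in the membrane and 22 to 101 CPM in spacer-side bone. It was also high in the tissue of the empty defect, at 73.2 to 142 CPM, so its level was not particular to the membrane. The part of membrane left on the bone in these differences was not tested. Without library 3a, 23.5% of all genes were higher and 24.3% lower beside the spacer without overlap between 3 and 4 libraries.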

How the data were processed

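Tissue was kept in RNAlater, and its RNA went into paired-end libraries of a stranded mRNA kit, per the labels' protocols. Bowtie2 2.2.1, FastQC 0.11.3, DESeq2, TopHat2 2.0.13 and build rn5 stand in the submitters' processing notes, with no roles. How reads were assigned to genes (program, annotation, strand) is not given in the sources used here, so overlapping and antisense genes cannot be told apart. The authors deposited raw whole-number counts per gene symbol for 14476 genes, with no normalisation, and symbols are printed as deposited. Positions of genes in rn5 are not printed.

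From these counts, edgeR 4.0.16 (R 4.3.3; TMM, filterByExpr, quasi-likelihood F-test, Benjamini-Hochberg over all genes tested) fitted 4 group means over 16 libraries. The SE is the fold change on the log2 scale divided by the square root of F. Within-rat ratios used CPM + 0.5. The labels tie same-numbered libraries to a rat, and the correlations of their deviations from the group means were 0.0958, 0.494, 0.203 and -0.0655 for rats 1 to 4. The rat as a block was an alternative, as were DESeq2 1.42.0, limma 3.58.1 (voom), other scalings, no filter and left-out libraries. No libraries of a group agreed within sampling noise (lowest chi-square per degree of freedom 122), so all were kept. Depth covers counting error only: the spread between rats set the precision. The procedure was tested on simulated data.

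The members, the 38 gene lists and the rules were chosen with earlier results of these data known. Genes were named by rule: the 8 called genes that rose most and the 8 that fell most, given a mean CPM of 5 or more and groups that did not overlap, up to 3 called members of each list with the lowest adjusted p or else its member with the highest mean CPM, a fixed panel of 14 genes, and the 5 genes with the highest mean CPM. This gave 90 genes, of which some are not reported here. Other genes in the text were chosen after their values were seen. Promoter sequences are from RefSeq (GRCr8).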

Additional observations from a re-analysis of the deposited data

Results flagged for a closer look

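In 19 of 198 groups of 4 libraries, 1 library lay far from the other 3, measured as its gap to the nearest of them over the whole range of the group. Chance gives about 1 such group in 20, and many of these genes belong to the same lists and are not independent. Most of them are the spacer-side bone library of rat 1. It stood high at 29500 CPM for Hba1, 24700 CPM for Hbb, 13600 CPM for Hba2, 994 CPM for Alas2, 2250 CPM for Slc4a1, 961 CPM for Mki67, 352 CPM for Rsad2, 68.9 CPM for Np4, 4.79 CPM for Ikzf3 and 8.66% of counts for the erythroid list. It stood low at 18.1 CPM for Megf6, 96.1 CPM for Tagln and 0.0854% of counts for the endothelial list.

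Among the libraries beside the empty defect, that of rat 4 stood high for Col2a1 at 5150 CPM, Fmod at 382 CPM, Car9 at 6.08 CPM and Cxcl2 at 0.415 CPM. That of rat 2 stood high for Acta2 at 90.2 CPM, and that of rat 3 low for Alas2 at 565 CPM.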

How the results depend on the processing

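All 64 called genes named by rule kept their direction under every alternative run. They were chosen as called on these libraries, so this describes them and is no independent check. Leaving out 1 bone library moved the 631 calls to between 0 and 2578, the 451 higher calls to between 0 and 1215 and the 180 lower calls to between 0 and 1363. Leaving out the spacer-side library of rat 1 and a further bone library, added after the data were seen, gave 1071 to 2317 calls, 512 to 1026 higher and 559 to 1307 lower. Without all libraries of rat 1 there were 1721 calls (706 higher, 1015 lower).

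The replicate block for rat gave 454 calls and kept 43 of the 64, and called none of the other genes named by rule. Of genes named for other reasons, Col3a1, Postn, Mmp2, Inhba, Smtn, Vwf, Esam, Hey2, Ebf1 and Vpreb3 lost their call, and Alpl, Pth1r and Gli1 gained one. The replicate block without the spacer-side library of rat 1 gave 2465 calls (1221 higher, 1244 lower). The 8 bone libraries fitted alone gave 1767 (1149 higher, 618 lower), DESeq2 1518 (950 higher, 568 lower) and limma-voom 6244 (3175 higher, 3069 lower). The mean erythroid level as a covariate left 0 calls, 0 higher and 0 lower by edgeR, with 922 genes at an unadjusted p under 0.05. The causes were not tested.

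With RLE size factors there were 567 calls, with scaling that left out erythroid genes 520 and without a low-count filter 553, and 62, 59 and 62 of the 64 were called. Added after the data were seen and without the spacer-side library of rat 1, the 8 bone libraries alone gave 5102 calls (2527 higher, 2575 lower), RLE size factors 2555 (1153 higher, 1402 lower) and DESeq2 3403 (1519 higher, 1884 lower). Low counts limit Cxcl2, Cxcl3, Il6 and Gp5.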

Other observations

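Some genes that no list held were among those with the lowest adjusted p, and they were chosen after their values were seen. Col18a1, the collagen of vascular basement membranes, was at 143, 533, 436 and 443 CPM beside the spacer in rats 1 to 4 and at 58.6, 108, 72.1 and 107 CPM on the empty side (log2FC 2.17, SE 0.38, edgeR adjusted p = 0.0174). Gpc1, a heparan sulfate proteoglycan of the cell surface, was at 298, 710.1, 664 and 602 CPM against 181, 252, 209.8 and 195 CPM (1.44, SE 0.24, adjusted p = 0.0174). Edn1, the vasoconstrictor endothelin, was at 3.22, 7.27, 5.79 and 4.67 CPM against 1.07, 1.61, 1.35 and 1.64 CPM (1.88, SE 0.28, adjusted p = 0.0174). None of the 3 overlapped between the groups, and in each the library of rat 1 was the lowest beside the spacer.

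Slco2a1, a prostaglandin transporter, was at 19.1, 53.3, 49.7 and 33.7 CPM against 7.39, 7.97, 9 and 9.1 CPM (2.22, SE 0.36, adjusted p = 0.0174). Lrat, which esterifies retinol, was at 8.66, 18, 14.5 and 13.7 CPM against 2.91, 3.77, 2.24 and 4.53 CPM (2.03, SE 0.33, adjusted p = 0.0174). Cd72, a co-receptor of B cells, was at 87, 47.8, 64.8 and 86.6 CPM against 288, 204, 260.1 and 198 CPM, and fell in all 4 rats (-1.73, SE 0.25, adjusted p = 0.0174).

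Also chosen after their values were seen, 2 genes of tendon were called only without the spacer-side library of rat 1, among the fits with and without it. Tnmd, a tendon membrane protein, was at 44.1, 193, 55.3 and 68.9 CPM against 20.4, 43.3, 13.5 and 8.92 CPM (2.07, adjusted p = 0.103, and 2.29, adjusted p = 0.0459, without the spacer-side library of rat 1). Scx, the tendon transcription factor, was at 4.95, 21.7, 11 and 12.4 CPM against 5.72, 9.61, 3.76 and 1.31 CPM, lower beside the spacer in rat 1 (1.29, adjusted p = 0.154, and 1.55, adjusted p = 0.0495).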
